A study of Mus musculus with 6 samples.

Results

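Chemokine ligands are the small secreted or membrane-anchored proteins that steer leukocyte movement, and 32 mouse genes for them were followed here: 18 of the CC class, 12 of the CXC class, 1 of the CX3C class (Cx3cl1) and 1 of the XC class (Xcl1). They were chosen by name, with earlier results of these data known. All 32 had an entry among the 36528 gene models of the files. At least 1 read was counted for 27 of them, and 18 passed the filter on low counts and were tested. PolyA RNA of primary melanocytes from mouse skin had been sequenced in 6 libraries, of which 3 carry the label BAP1 KO, a knockout, and 3 the label WT, wild type, so the comparison asks how the genotype label goes with ligand expression. The labels give no other agent, and they do not state strain, age, how BAP1 was removed, or whether the 3 libraries of a group came from separate animals or cultures. The p-values therefore speak of the spread among these 6 libraries, and that spread may be technical.

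The classes are named after the spacing of cysteines near the start of the mature protein. Most chemokines are read by G-protein-coupled receptors on leukocytes: CXC ligands with an ELR motif mainly draw neutrophils through Cxcr2, several CC ligands draw monocytes and macrophages through Ccr1 and Ccr2, and the interferon-induced CXC ligands act on T cells through Cxcr3. In skin they are made by keratinocytes, fibroblasts and resident immune cells as well as by pigment cells. Many of their genes lie side by side in clusters, and many are induced through NF-kappaB or through STAT and IRF factors.

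Libraries held 33987690 to 43773769 uniquely aligned reads counted in gene models. Bap1, the gene named by the label, stood at 73.6, 77.3 and 72.5 CPM (read counts scaled to library size) under the KO label and at 55.7, 55.6 and 55.8 CPM under the WT label. It was thus higher, not lower, under the KO label, by 0.42 (SE 0.04) on the log2 scale (edgeR quasi-likelihood test, Benjamini-Hochberg adjusted p = 3.90e-06). Counts per whole gene do not show whether an exon is missing, so the label was not checked by this value, and libraries are named below by their label. All 10 melanocyte markers were read in every library, and all 10 were higher under the KO label, with a summed level of 63320 to 64140 CPM against 6595 to 6690 CPM. Keratinocyte markers went the other way, at 610 to 657 CPM against 10130 to 10450 CPM, with 15 of 15 tested lower. In bulk RNA, fewer cells of a type and less RNA per cell cannot be told apart.

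Most genes of these libraries differed between the labels, which sets the scale for the ligands. Of 17121 genes tested, 39.4% were called higher and 42.1% lower under the KO label at an adjusted p under 0.05. Among the 18 ligand genes tested, 4 were called higher, 12 were called lower and 2 were not called. Their median log2 difference was -1.23, against -0.03 over all genes tested. The 2 groups of libraries did not overlap for 16 of the 18, which is near the 82.7% of all genes tested. The size of the fall stood further from the background: 10 of 18 ligand genes were lower by more than 2-fold, against 22.7% of all genes, and 7 of 18 were lower by more than 16-fold, against 4.25%. In the other direction, 2 of 18 were higher by more than 2-fold, against 13.9% of all genes. A ligand could enter the test through the group in which it was high, so these counts describe the genes tested and not all 32. The list was also drawn up with earlier results of these data known. Its distance from the background is therefore a description and not a test.

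**Figure D1:**
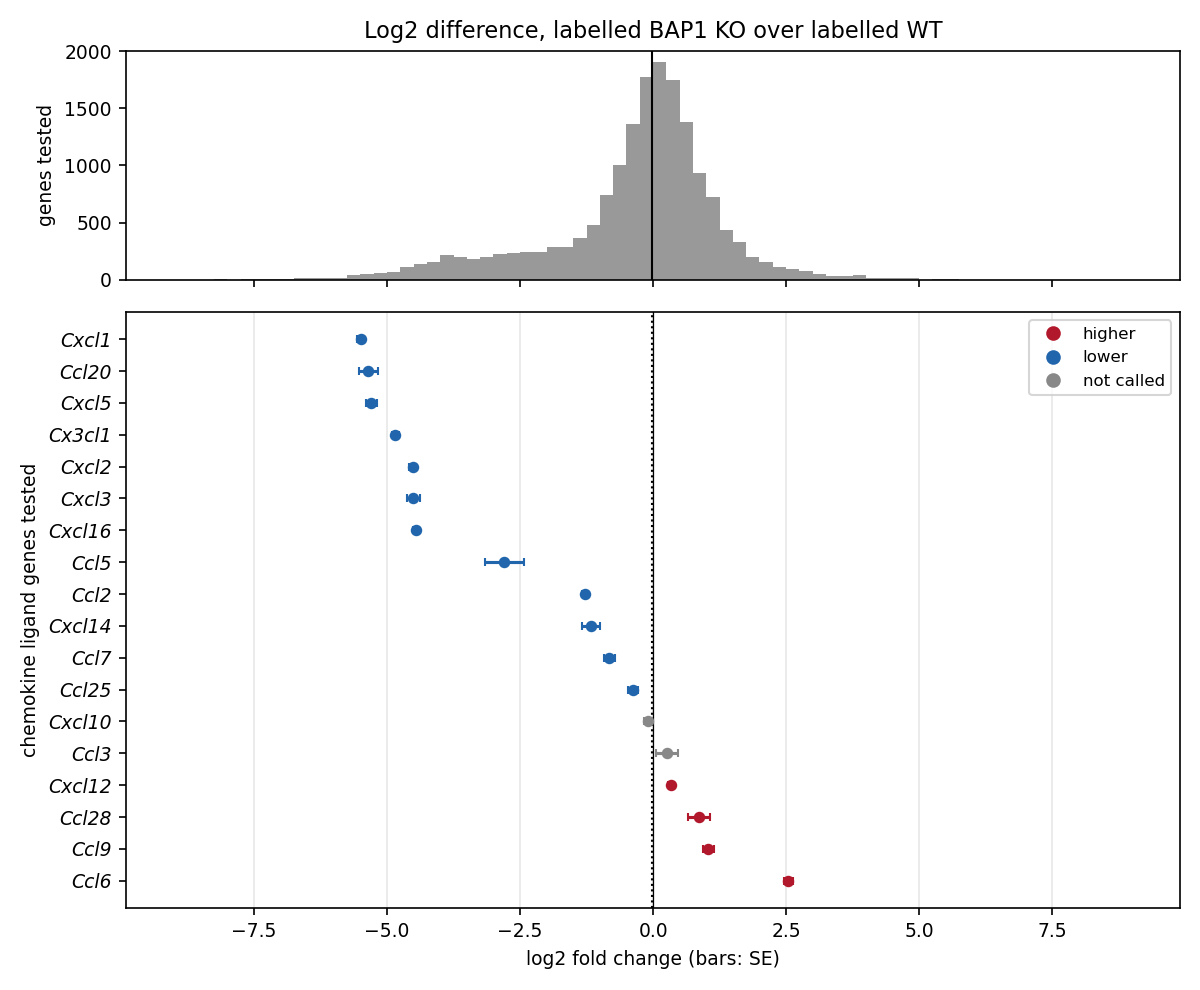
Upper panel: number of genes tested by log2 difference, labelled BAP1 KO over labelled WT, with a line at the median of all genes. Lower panel: log2 difference of each of the 18 ligand genes tested, with bars of 1 SE (blue, called lower; red, called higher; grey, not called). From Cxcl1 at -5.50 to Cxcl16 at -4.45, 7 genes stand apart at the left, and Ccl6 at 2.54 is farthest to the right.

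By class, the CC ligands had 9 genes tested, 3 higher and 5 lower, and their median log2 difference was -0.37. The CXC ligands had 8 tested, 1 higher and 6 lower, and a median of -4.48. As a background for both classes, calls over the 17121 genes came to 39.4% higher and 42.1% lower, around a median of -0.03. The CC median lay much nearer to that background median than the CXC median did. Cx3cl1 was tested and lower, and Xcl1, a ligand of dendritic cells that bear Xcr1, had 0 reads in all 6 libraries.

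The neutrophil-drawing ligands Cxcl1, Cxcl2, Cxcl3 and Cxcl5, which act through Cxcr2, were all lower under the KO label by over 22-fold. Cxcl1 stood at 4.77, 5.42 and 4.52 CPM under the KO label and at 224, 228 and 216 CPM under the WT label. The lowest WT library was far above the highest KO library, and the log2 difference was -5.50 (SE 0.06), a 45.2-fold fall (edgeR adjusted p = 2.26e-13). Cxcl5 stood at 2.64, 2.25 and 2.34 CPM under the KO label and at 88.4, 107 and 87.9 CPM under the WT label. WT replicate 2 was the highest of its group, and the log2 difference was -5.29 (SE 0.11, edgeR adjusted p = 6.45e-12). Cxcl2 was at 2.64, 2.39 and 2.45 CPM against 56.2, 57.5 and 58.1 CPM, a log2 difference of -4.52 (SE 0.06, edgeR adjusted p = 5.23e-13). Its closest relative Cxcl3 was at 1.43, 1.06 and 1.65 CPM against 29.0, 34.5 and 29.5 CPM. The log2 difference of Cxcl3 was -4.51 (SE 0.13, edgeR adjusted p = 9.98e-11). The groups overlapped for none of these 4 genes. Of the exonic 50-base stretches, 5.84% of those of Cxcl2 and 4.29% of those of Cxcl3 are shared with any other gene. Each of the 2 shares most with the other, so a small part of their sequence could not be counted uniquely.

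**Figure D2:**
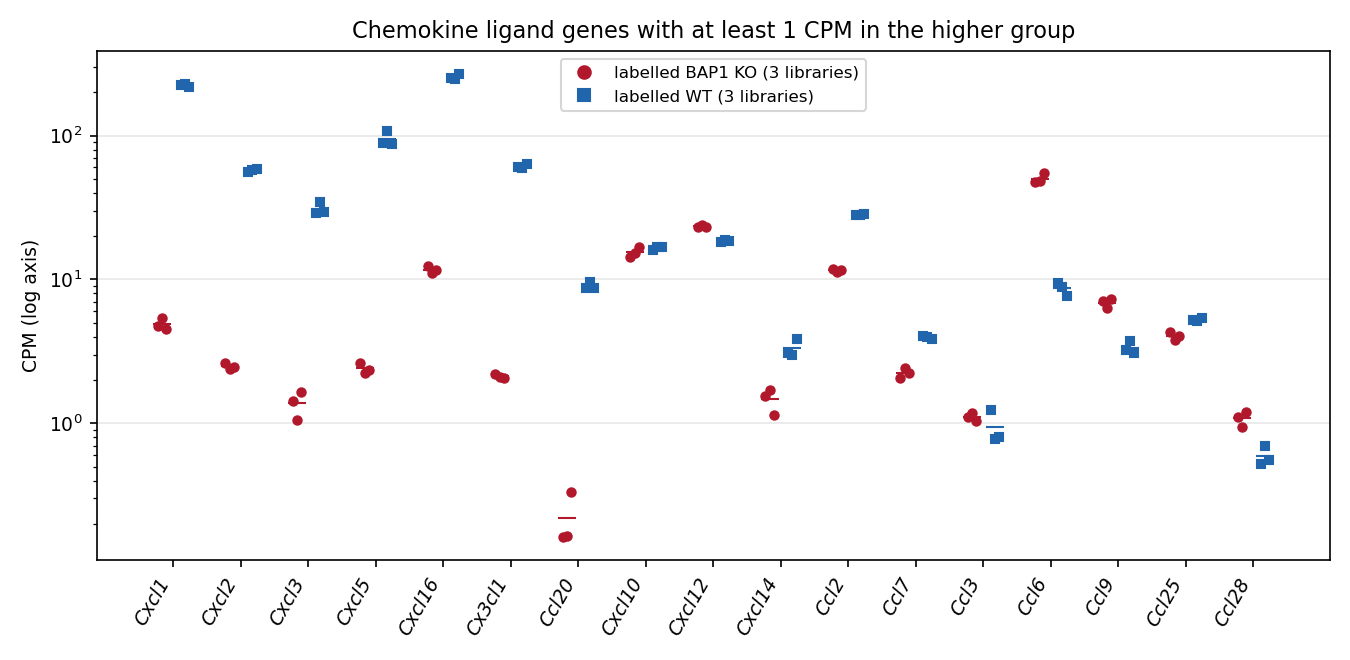
CPM on a log axis for the 17 ligand genes with a mean of at least 1 CPM in the higher group, with 1 point per library (circles, labelled BAP1 KO; squares, labelled WT) and a short line at each group mean. From Cxcl1 to Ccl20 the squares lie far above the circles, for Cxcl10 and Ccl3 the points overlap, and for Ccl6, Ccl9, Ccl28 and Cxcl12 the circles lie above.

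The bases just before the start of these genes are shown because several of the members that fell most hold a match to 1 motif there. The sequences are from RefSeq on GRCm38.p6, each 5′ to 3′ on the strand of its gene and ending at the base before the annotated start, and capitals mark matches to the kappaB consensus, the sequence that NF-kappaB dimers recognise. They lie at chr5:90891125-90891244 for Cxcl1, chr5:90903779-90903898 for Cxcl2, chr5:90785981-90786100 for Cxcl3 and chr1:83116646-83116765 for Ccl20, a CC ligand described below, all on the plus strand.
Cxcl1: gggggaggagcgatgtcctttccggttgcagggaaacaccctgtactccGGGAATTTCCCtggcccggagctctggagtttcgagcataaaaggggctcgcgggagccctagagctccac
Cxcl2: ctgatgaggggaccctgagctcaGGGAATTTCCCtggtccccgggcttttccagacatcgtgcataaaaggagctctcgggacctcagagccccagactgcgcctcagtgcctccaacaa
Cxcl3: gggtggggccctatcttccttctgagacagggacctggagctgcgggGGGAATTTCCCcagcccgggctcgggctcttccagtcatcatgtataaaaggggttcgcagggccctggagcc
Ccl20: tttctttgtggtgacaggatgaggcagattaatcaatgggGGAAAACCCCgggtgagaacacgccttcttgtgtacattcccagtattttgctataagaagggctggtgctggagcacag

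In Cxcl1, Cxcl2 and Cxcl3 the capitals are the same run, at 71 to 61, 97 to 87 and 73 to 63 bases before the start. Overlapping but offset matches on the plus and minus strands make up each run. In Ccl20 the match is on the minus strand at 80 to 71 bases before the start. A promoter entry was found for 22 of the 32 ligand genes, and the 250 bases before the start were searched on both strands. The kappaB consensus matched in 7 of the 22 (Ccl1, Ccl20, Ccl9, Cxcl1, Cxcl10, Cxcl2 and Cxcl3) and in 7.25% of 32851 promoters. Here and for the letters below, a ligand gene counted if any of its entries matched, whereas the percentages are of single promoter entries. The 7 do not share a direction: Ccl9 was higher, Cxcl10 was not called and Ccl1 had 0 reads. Cx3cl1, which fell 28.7-fold, held no match in its window. The AP-1 letters TGANTCA, which read alike on both strands, were found in 2 of 22 (Ccl9 and Cxcl10) against 6.75% of all promoters. TATAAA was found in 9 of 22, Cxcl3 among them, against 12.4%. A match is a description of the letters and shows neither a bound site nor a cause, and entries for Ccl2, Ccl4, Ccl5, Ccl7, Ccl11, Ccl24, Ccl26, Cxcl5, Cxcl11 and Cxcl16 were not used here.

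The membrane-anchored ligands Cx3cl1 and Cxcl16, both released from the cell surface by Adam10 and Adam17, were lower by 28.7-fold and 21.9-fold. Cx3cl1, also called fractalkine, the ligand of Cx3cr1, stood at 2.21, 2.11 and 2.06 CPM under the KO label and at 60.04, 59.8 and 63.8 CPM under the WT label. The groups were far apart, with a log2 difference of -4.84 (SE 0.07, edgeR adjusted p = 4.75e-13). Cxcl16, the ligand of Cxcr6 and a scavenger of oxidised lipoprotein, was at 12.4, 11.02 and 11.7 CPM against 252, 248 and 268 CPM. Its log2 difference was -4.45 (SE 0.06, edgeR adjusted p = 3.44e-13), with no overlap between the groups. Exons of Zmynd15 cover 18.3% of the exonic bases of Cxcl16, and Zmynd15 was also lower, at 3.72 against 72.2 CPM (log2 difference -4.28). Since the library kit does not mark strand, reads in the shared bases could not be told apart.

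Ccl20, which draws Ccr6-bearing dendritic cells and T cells, was nearly unread under the KO label. It had 6, 7 and 12 reads there and 303, 363 and 357 reads under the WT label, or 0.16, 0.16 and 0.33 CPM against 8.72, 9.65 and 8.66 CPM. The log2 difference was -5.36 (SE 0.18, edgeR adjusted p = 3.43e-10), a 41.0-fold fall resting on 25 reads in all on the KO side. Ccl5, which draws T cells and monocytes, was tested on few reads: 5, 4 and 6 under the KO label and 20, 38 and 47 under the WT label. It was lower by 6.94-fold (edgeR adjusted p = 4.09e-05) but stayed under 1 CPM on average in both groups.

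The monocyte-drawing ligands Ccl2 and Ccl7, which act through Ccr2, fell 2.44-fold and 1.77-fold. Ccl2 stood at 11.8, 11.3 and 11.6 CPM under the KO label and at 28.0, 28.1 and 28.3 CPM under the WT label. The groups did not overlap, and the log2 difference was -1.29 (SE 0.05, edgeR adjusted p = 2.18e-09). Ccl7 was at 2.08, 2.42 and 2.23 CPM against 4.06, 3.99 and 3.88 CPM, a log2 difference of -0.82 (SE 0.11, edgeR adjusted p = 3.03e-05), again without overlap.

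Ccl6 and Ccl9, a pair of rodent ligands of Ccr1 made by macrophages and other myeloid cells, moved the opposite way. Ccl6 stood at 47.9, 48.2 and 54.6 CPM under the KO label and at 9.41, 8.88 and 7.66 CPM under the WT label. Every KO library was above every WT library, by 5.82-fold (log2 difference 2.54, SE 0.08, edgeR adjusted p = 2.93e-10). Ccl9 was at 7.04, 6.31 and 7.31 CPM against 3.22, 3.75 and 3.06 CPM, a 2.06-fold rise (log2 difference 1.04, SE 0.11, edgeR adjusted p = 4.44e-06). Ccl3, another Ccr1 ligand, was at 1.10, 1.17 and 1.03 CPM against 1.24, 0.77 and 0.80 CPM. Its groups overlapped and it was not called (log2 difference 0.25, SE 0.21, edgeR adjusted p = 0.278). WT replicate 1 decided this: without it the difference was 0.51 and the adjusted p 0.0390.

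Macrophage and dendritic cell markers are given beside these 2 rises because macrophages make both ligands. Of 14 such markers 13 were tested, with 8 higher and 5 lower, so the list did not move 1 way. Its summed level was 243 to 252 CPM under the KO label and 71.8 to 79.3 CPM under the WT label. Lyz2, the lysozyme of myeloid cells, made up most of the sum under the KO label and was 7.81-fold higher, and the mannose receptor Mrc1 was 13.7-fold higher. The lower markers were Cd14, a lipopolysaccharide co-receptor gene, at 0.69 against 13.7 CPM (19.9-fold), Aif1 (40.1-fold, on 3 reads against 133), Cd74 (11.6-fold, on 8 reads against 95), Adgre1 (1.78-fold) and Itgam (1.25-fold). Ptprc, which encodes the pan-leukocyte protein CD45, was under 1 CPM in every library, and Cd207 had 0 reads. The part of these cells in the rise of Ccl6 and Ccl9 was not tested.

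Of the other ligand genes tested, Cxcl12 and Ccl28 were higher, and Cxcl14 and Ccl25 were lower. Cxcl12, the ligand of Cxcr4 that holds stem cells and leukocytes in their niches, stood at 23.1, 24.0 and 23.1 CPM under the KO label and at 18.2, 18.8 and 18.6 CPM under the WT label. It was 1.26-fold higher (log2 difference 0.34, SE 0.05, edgeR adjusted p = 0.000115), without overlap. Cxcl14, an epithelial ligand, was at 1.54, 1.71 and 1.14 CPM against 3.08, 3.01 and 3.88 CPM, a 2.26-fold fall (log2 difference -1.18, SE 0.17, edgeR adjusted p = 6.87e-05). Ccl25, which directs T cells to thymus and gut through Ccr9, was at 4.31, 3.78 and 4.07 CPM against 5.21, 5.13 and 5.38 CPM, a 1.30-fold fall (log2 difference -0.37, SE 0.09, edgeR adjusted p = 0.00286). Exons of Elavl1, which was at 94.9 against 109.5 CPM and also lower, cover 2.74% of the exonic bases of Ccl25. Ccl28, a mucosal ligand of Ccr10, was at 1.10, 0.94 and 1.199 CPM against 0.52, 0.69 and 0.56 CPM, a 1.82-fold rise (log2 difference 0.86, SE 0.20, edgeR adjusted p = 0.00225). The libraries of the 2 labels did not overlap for any of these 4 genes.

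The interferon-induced ligands Cxcl9, Cxcl10 and Cxcl11 share the receptor Cxcr3. Cxcl10 stood at 14.4, 15.4 and 16.7 CPM under the KO label and at 15.9, 16.9 and 16.8 CPM under the WT label. The groups overlapped and it was not called (log2 difference -0.10, SE 0.07, edgeR adjusted p = 0.216), although among genes with at least 5 CPM in 3 libraries it was called lower at -0.17 (adjusted p = 0.0367). Cxcl9 had 0 reads, and Cxcl11 had 18 reads under the KO label and 5 under the WT label and did not pass the count filter; without that filter edgeR called it higher (adjusted p = 0.0323). Exons of Gm2673 cover 41.7% of the exonic bases of Cxcl11. Cxcl10 and Cxcl11 both lie within the span of Art3, which was higher at 70.8 against 17.6 CPM (log2 difference 2.01). Exons of Art3 overlap 5.91% of the exonic bases of Cxcl10.

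The bases before Cxcl10 are shown because, unlike those printed for Cxcl1 and its relatives, they hold the interferon response element beside the kappaB consensus, and this gene was not called. The sequence is RefSeq's on the minus strand of GRCm38.p6 at chr5:92348890-92349109, ending at the base before the start, and capitals mark 1 match to GAAANNGAAA and then 2 runs that match the kappaB consensus.
Cxcl10: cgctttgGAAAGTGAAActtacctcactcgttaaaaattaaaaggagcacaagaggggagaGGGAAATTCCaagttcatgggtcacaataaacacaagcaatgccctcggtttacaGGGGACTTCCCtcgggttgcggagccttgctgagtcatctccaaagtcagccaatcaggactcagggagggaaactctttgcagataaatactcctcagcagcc

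The GAAANNGAAA match lies at 213 to 204 bases before the start, and the kappaB runs at 159 to 150 and at 104 to 94, the latter made of overlapping matches on both strands. Searched on both strands, GAAANNGAAA was found in 2 of 22 ligand genes (Cxcl10 and Cxcl14) and in 2.98% of all promoters. No match overlapped one of the kappaB consensus in Cxcl10.

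The remaining ligand genes were hardly read. Ccl1, Ccl11, Ccl26, Cxcl9 and Xcl1 had 0 reads in all 6 libraries, where 3 reads, the limit that a count of 0 allows, come to 0.07 to 0.09 CPM. Counts summed over 3 libraries were 3 under the KO label and 10 under the WT label for Ccl4, 4 and 0 for Ccl8, 0 and 3 for Ccl12, 4 and 8 for Ccl17, 1 and 0 for Ccl22, 0 and 4 for Cxcl13, and 1 and 3 for Cxcl15. No difference was detectable at these counts, and without the count filter edgeR called none of these 7 genes. Ccl24, an eosinophil-drawing ligand of Ccr3, had 0 reads under the KO label and 9, 6 and 7 under the WT label, at least 7.79-fold lower when set against 3 reads over the group; it did not pass the count filter, and without that filter edgeR called it lower (adjusted p = 0.000113).

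Per unit of length, the make-up of the transcripts of these 32 ligand genes differed between the labels. Chemokine genes outside the 32 are not in the sums below. Ppbp is 1 of them, at 156.4 RPKM under the WT label, above Cxcl16 at 93.8, and at 3.84 RPKM under the KO label. The authors' deposited RPKM (reads scaled to gene length and library size, and adjusted by a size factor) summed over the 32 genes came to 87.2 ± 3.13 under the KO label and 532.8 ± 4.85 under the WT label (SD, n = 3). Cxcl1 held 40.4% ± 0.82 of the WT sum (SD, n = 3), followed by Cxcl16 with 17.6%, Cxcl5 with 9.87% ± 0.93 and Cxcl2 with 9.16% ± 0.21, whose order is within the SD. Under the KO label Ccl6 held 37.8% ± 1.42 (SD, n = 3), followed by Ccl2 with 15.5% and Cxcl10 with 15.2%, while Cxcl1 held 5.57%. The order of Ccl2 and Cxcl10 there is within their SDs of 0.60 and 0.68 percentage points. Shares add up to a whole, so a gene such as Ccl2 took a larger share under the KO label, 15.5% against 6.04%, although its own level was lower.

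**Figure D3:**
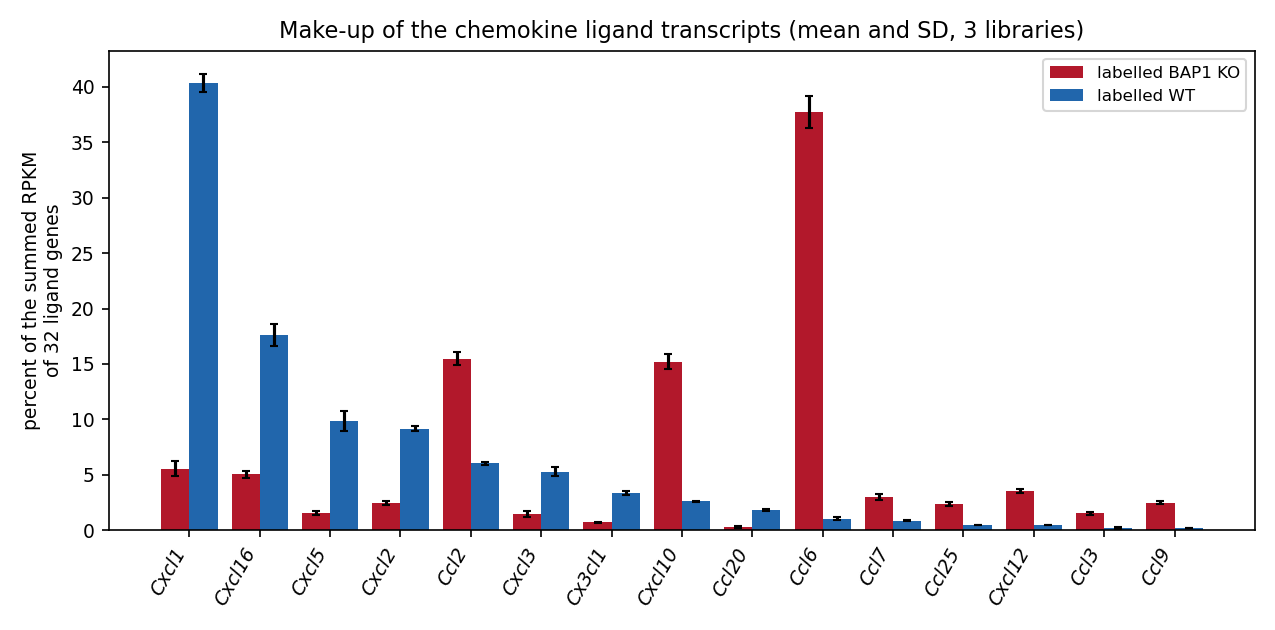
Share of the summed RPKM of 32 ligand genes, in percent, for the 15 genes with at least 1% in either group (bars, mean of 3 libraries; error bars, SD; red, labelled BAP1 KO; blue, labelled WT). Among the 32, Cxcl1 and Cxcl16 lead under the WT label, and Ccl6, Ccl2 and Cxcl10 lead under the KO label.

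Neighbouring genes moved together in some clusters and apart in others. Clusters here are ligand genes less than 300 kb apart on GRCm38, by the RefSeq table. The cluster from Cxcl5 to Cxcl2 on chromosome 5 spans 146.6 kb and holds 7 ligand genes, of which the 6 tested were all lower. Inside it lie Ppbp and Pf4, chemokine genes outside the 32: Ppbp, a Cxcr2 ligand first known from platelets, was at 4.58, 4.64 and 3.96 CPM against 178, 198 and 174 CPM (log2 difference -5.38, SE 0.08), while Pf4, platelet factor, was at -0.48 (SE 0.09), both called by edgeR. Pf4 thus lay between Ppbp and Cxcl3 and fell 1.39-fold, against 41.5-fold and 22.7-fold for those neighbours. On chromosome 11, the cluster from Ccl2 to Ccl1 (144.2 kb, 6 ligand genes) had Ccl2 and Ccl7 tested, both lower. The nearby cluster from Ccl5 to Ccl4 (138.9 kb, 5 ligand genes) held both directions, with Ccl5 lower, Ccl9 and Ccl6 higher and Ccl3 not called. E230016K23Rik, a gene model whose span covers that of Ccl6, was lower, at 0.09 against 1.23 CPM. On chromosome 8, Cx3cl1 was the 1 gene tested of 3 between Ccl22 and Ccl17 (66.4 kb), and both of those had fewer than 10 reads in either group.

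**Figure D4:**
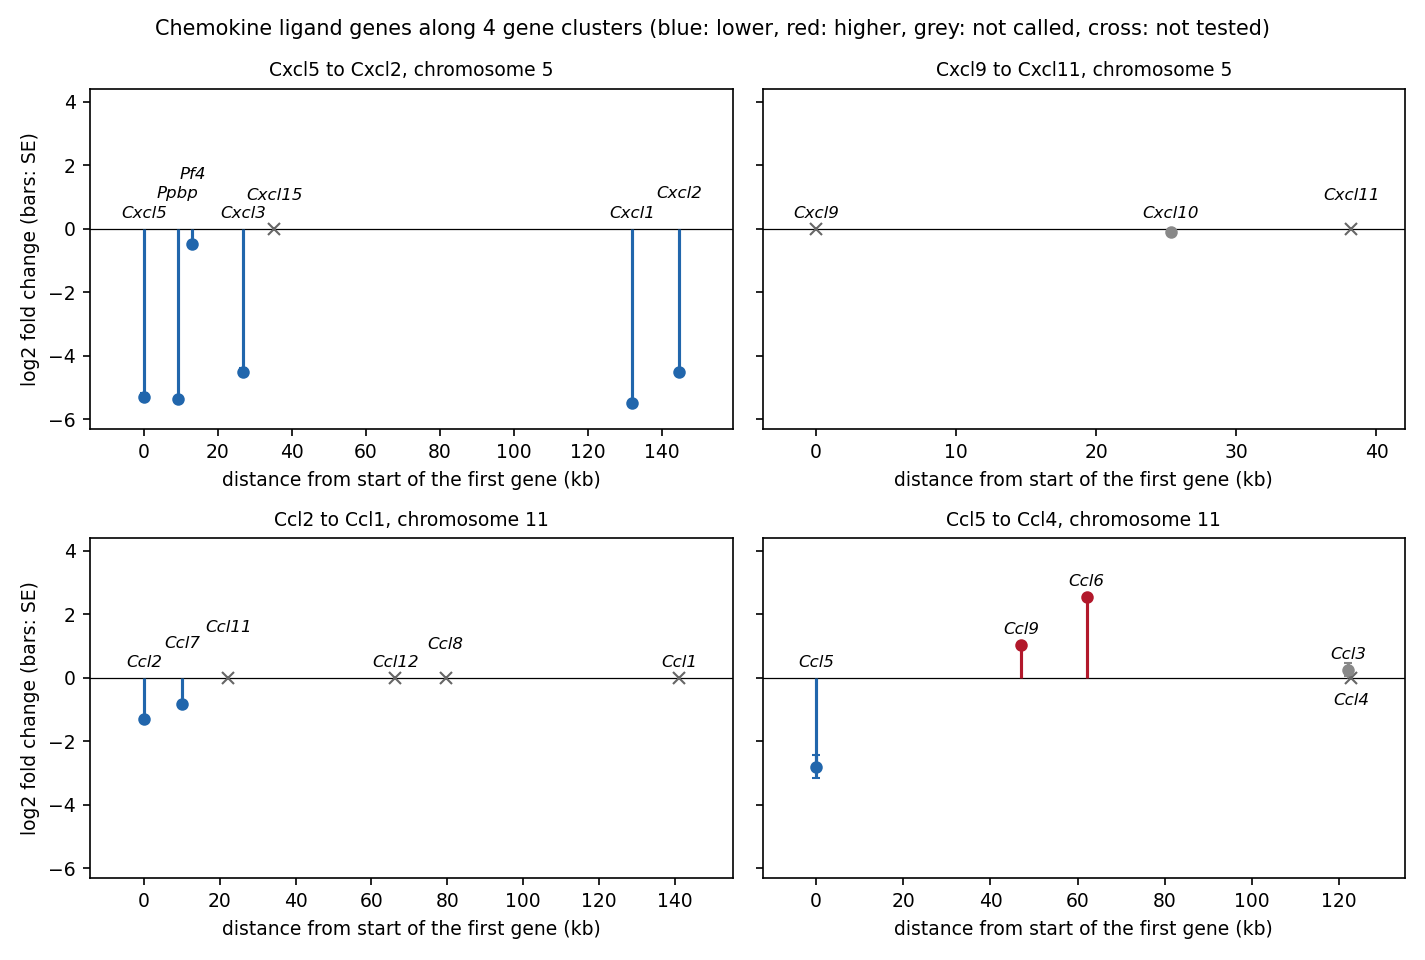
Log2 difference (bars, SE) of ligand genes against distance in kb from the start of the first gene, in 4 clusters on chromosomes 5 and 11 (blue, called lower; red, called higher; grey, not called; crosses on the zero line, under the count filter). Every tested gene from Cxcl5 to Cxcl2 lies below the line, Pf4 least, while the genes from Ccl5 to Ccl4 lie on both sides.

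The receptors for these ligands were little read. Of 19 chemokine receptor genes 17 had a read and 4 were tested, and 2 of these were higher, against 39.4% of all genes tested. Cxcr4, the receptor of Cxcl12, was at 3.96, 3.87 and 3.85 CPM under the KO label and at 2.22, 1.54 and 1.70 CPM under the WT label, a 2.15-fold rise (edgeR adjusted p = 2.01e-05). Ccr10, the receptor of Ccl28, was at 1.73, 1.83 and 1.67 CPM against 0.66, 0.43 and 0.90 CPM, a 2.61-fold rise (edgeR adjusted p = 0.00016). Neither overlapped between the labels. Ccr1, the receptor of Ccl6 and Ccl9, was at 1.43, 0.99 and 1.17 CPM against 1.12, 0.66 and 0.70 CPM and was not called (edgeR adjusted p = 0.0593). Cxcr2, which reads the 4 neutrophil-drawing ligands, had 13 reads under the KO label and 18 under the WT label, Cx3cr1 had 4 and 11, Cxcr6 had 32 and 26, and Ccr6 had 0 in every library. The atypical receptors, which act without G-protein signalling, were lower in 3 of 3 tested, against 42.1% of all genes tested. Ackr3, which binds Cxcl12, fell 3.20-fold, Ackr4 1.67-fold and Ccrl2 2.64-fold, the last on 14 and 37 reads.

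**Figure D5:**
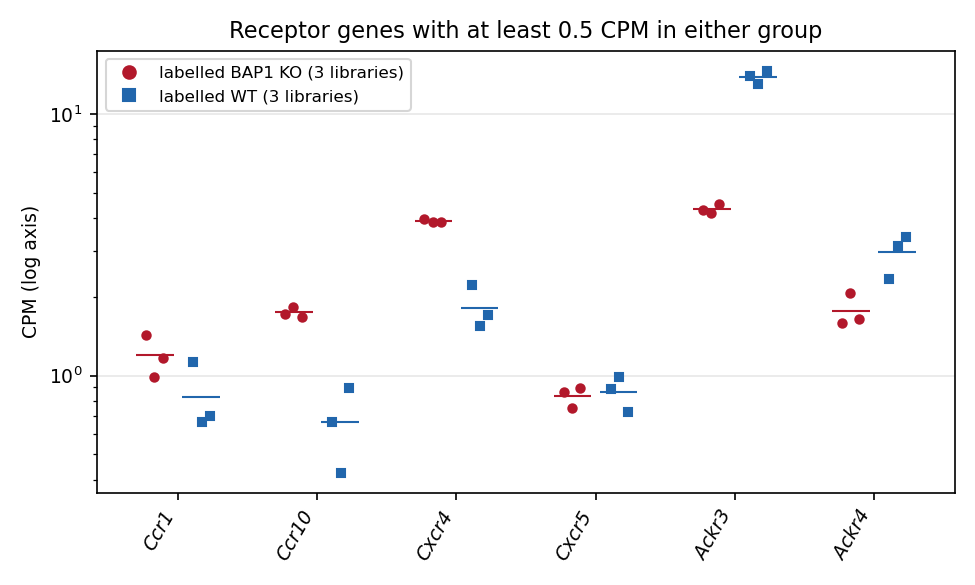
CPM on a log axis for the 6 receptor genes with at least 0.5 CPM in either group, 1 point per library (circles, labelled BAP1 KO; squares, labelled WT) with a line at each group mean. Cxcr4 and Ccr10 are higher under the KO label, Ackr3 and Ackr4 lower, and Ccr1 and Cxcr5 overlap.

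The genes that release, trim and hold chemokines changed in both directions, as all genes tested did (39.4% higher, 42.1% lower). Of 10 proteases tested 3 were higher and 7 lower. Of the sheddases of Cx3cl1 and Cxcl16, Adam10 rose 2.94-fold and Adam17 fell 1.76-fold (edgeR adjusted p = 1.41e-08 and 5.68e-08). The matrix proteases Mmp9, Mmp13 and Mmp3, which trim several chemokines, were lower, with log2 differences of -5.60, -3.34 and -3.31. Heparan sulfate carriers and enzymes, which anchor chemokines at the cell surface, had 4 higher and 9 lower of 13 tested. Among these the syndecan Sdc1 fell 27.6-fold, from 1948, 1937 and 1978 CPM under the WT label to 68.3, 73.5 and 70.6 CPM under the KO label, and Sdc3 rose 1.998-fold.

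Cytokine genes, several of which induce chemokines, were lower in 13 of 13 tested, with a median log2 difference of -3.88. For this and the lists that follow, the shares over all genes tested were 39.4% higher and 42.1% lower. The alarmin gene Il33 was at -5.90, Tnf at -5.64 and the growth factor gene Csf2 at -5.54. Of 12 receptors for such cytokines 2 were higher and 9 lower: Il13ra1, Il1r1 and Il4ra were lower, at -4.53, -3.15 and -3.04, and Tnfrsf1a and Ifnar2 were higher, at 0.70 and 0.37 (log2 differences). Of 15 genes on the NF-kappaB list, all tested, 10 were higher and 3 lower. The 3 that fell were Tnfaip3, Nfkbiz and Nfkbia, at -5.14, -2.63 and -1.10. Nfkbie, Ikbkb and Bcl3 rose by 0.66, 0.61 and 0.49, and Rela was not called (log2 difference -0.09). Of 9 STAT and IRF factors 6 were higher and 3 (Irf1, Irf3 and Irf8) were not called, with Stat2 at 1.96 and Irf7 at 1.36. Regulators of chemokine mRNA decay had 2 higher and 5 lower of 8. The nuclease gene Zc3h12a was at -2.72, Zfp36l2 at -1.65 and Zfp36l1 at -0.82, while Hnrnpd and Rc3h1 rose by 0.60 and 0.23. Behind the receptors, 5 signalling genes were higher and 5 lower of 14 tested. Grk5 and Arrb1, which desensitise receptors, were at 2.19 and 2.06, and the phospholipase gene Plcb2 at 4.14 on 132 reads against 7. Grk3, Gnai3 and Grk2 were lower, at -0.50, -0.46 and -0.20.

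Markers of cell types that make the ligands that fell are given beside that fall. Keratinocyte markers had a median log2 difference of -4.18 over the 15 tested. Their defining genes were read under the KO label too: Krt14 stood at 96.6, 98.8 and 94.0 CPM there and at 1979, 1923 and 2100.0 CPM under the WT label. Fibroblast markers summed to 40.1 to 42.0 CPM against 463 to 486 CPM, with 10 lower and 1 higher of 11 tested. Postn made up most of the WT sum, at 353 CPM. The largest part of the KO sum was Pdgfrb, the 1 that rose, at 20.1 CPM. On the neutrophil list only S100a8 and S100a9, which keratinocytes also express, were tested, and both were lower, while Mpo, Elane, Ly6g and Retnlg had at most 8 reads in either group. T and NK cell markers summed to at most 1.11 CPM in any library and mast cell markers to at most 0.40 CPM. Endothelial markers summed to 48.8 to 53.9 CPM against 14.7 to 15.6 CPM, with 2 higher and 1 lower of 3 tested. The largest part was Vwf under the KO label, at 38.6 CPM, and Kdr under the WT label, at 8.90 CPM. Cdh5 had 8 and 4 reads. The part of keratinocytes and fibroblasts in the fall of the ligands was not tested.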

How the data were processed

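PolyA RNA of 6 libraries was read as single-end reads of 50 bases from a kit that does not mark strand, per the labels' protocols. The submitters' processing notes name GSNAP and GRCm38, with aligner version, counting tool and annotation not given in the sources used here. The authors deposited, per the file headers, for each gene model the count of uniquely aligned reads and a size-factor-adjusted RPKM. Gene IDs were matched to the RefSeq table of GRCm38.p6 (31049 of 36528 gene models, 85.0%).

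Genes were kept with edgeR's filterByExpr (minimum count 10, minimum total 15), scaled by TMM with factors of 0.975 to 1.03, and then compared by edgeR 4.0.16 (glmQLFit, glmQLFTest, no covariate) in R 4.3.3 over all 17121 genes, with calls at an adjusted p (Benjamini-Hochberg) under 0.05. CPM are TMM-scaled, and SE is the absolute log2 difference over the square root of F. The script was tested on simulated data. No 2 libraries of a group agreed within sampling noise (chi-square over degrees of freedom, 2.01 to 17.4). Exon overlap and shared 50-base stretches came from GENCODE M21 with Python 3.11.15. Counts and limits cover counting error only.

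Ligands with a mean of at least 1 CPM in the higher group are given in full and others by their reads. From each further list up to 3 called genes per direction are named, by size among those at 1 CPM or more; receptors are named where they read a ligand described, and Zmynd15, Gm2673, Elavl1, Art3 and E230016K23Rik because they overlap a ligand, and Adam17 because it releases Cx3cl1 and Cxcl16. Replicates are numbered in accession order. The members and lists were chosen with earlier results of these data known. Alternatives were DESeq2 size factors, library totals, upper-quartile factors, the authors' library factors, other filters, DESeq2 1.42.0, limma-voom 3.58.1, the robust option, an adjusted p under 0.01, glmTreat, and leaving out each library.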

Additional observations from a re-analysis of the deposited data

How the results depend on the processing

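The count of ligand genes called lower lay between 9 and 13 over all alternatives run, and the count called higher between 1 and 5. Leaving out each library in turn gave 4 to 5 higher and 12 lower. Against a log2 fold change of 1 (glmTreat), 1 ligand gene was higher, Ccl6, and 9 were lower, with 1818 genes higher and 3417 lower over all genes; this test asks for a larger change. Without a count filter 27 ligand genes were tested, with 5 higher and 13 lower, and Cxcl11 and Ccl24 gained a call. With at least 5 CPM in 3 libraries 13 were tested, with 3 higher and 10 lower. Of 285 values of the 17 ligand genes given in full, 277 kept their direction and side of the threshold, 6 lost the call (all under glmTreat), 2 gained one (Cxcl10 with the 5 CPM filter, Ccl3 without WT replicate 1) and 0 reversed. Scaling moved the median of all genes by at most 0.06 on the log2 scale. Under library totals 6297 genes were higher and 7624 lower, against 6742 and 7207. Ligand genes under about 1 CPM rest on few reads. No paired analysis was possible because the labels give the libraries no replicate numbers.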
